A study of Mus musculus with 15 samples.

Results

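The peaks assigned to the AP-1 family genes Fos, Fosb, Fosl1, Fosl2, Jun, Junb and Jund were taken from 4 ATAC-seq comparisons of mouse pancreatic islets. ATAC-seq uses the Tn5 transposase to cut and tag accessible DNA. Every peak whose deposited gene name was one of these 7 symbols was included, after repeated rows had been dropped. This gave 38 peak entries of 41774, with 9 of 7826 peaks for KO-labelled against control islets before partial pancreatectomy (PPx), 10 of 13111 for the same contrast after PPx, 8 of 8070 for after against before PPx in controls and 11 of 12767 for after against before PPx in KO-labelled islets. Entries that overlapped between tables were treated as 1 place, and the 38 entries fell on 11 places, 8 of them present in all 4 tables. Fos had 4 places, Fosb 3, and Fosl2, Jun, Junb and Jund 1 each. Fosl1 had no listed peak in any table.

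All mice were males aged 3 months with Arid1aFl/Fl alleles, that is floxed Arid1a, and all carried MIP-rtTA, a doxycycline-dependent activator under the mouse insulin promoter. Arid1a encodes a DNA-binding part of SWI/SNF, a complex that moves nucleosomes. The labels of control mice name no Cre transgene, and the KO-labelled mice (Arid1a βKO) also carried TRE-Cre, so that doxycycline turns on Cre in beta cells while the other islet cells keep the floxed alleles. The mice drank water with doxycycline at 1 g/L for 2 weeks, and PPx, the surgical removal of part of the pancreas, was done 1 week after its withdrawal. Islets were taken without PPx from 4 control and 3 KO-labelled mice, and 6 days after PPx from 4 control and 4 KO-labelled mice, with 40000 islet cells per library. In bulk islet cells, fewer open nuclei and less signal per nucleus cannot be told apart.

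AP-1 is typically a dimer of a Fos and a Jun protein, or of Jun proteins alone, joined through leucine zippers and bound to DNA by adjacent basic regions. Fos, Fosb, Jun and Junb are immediate early genes, transcribed within minutes of growth factor, calcium or stress signals through kinases of the MAPK family, whereas Jund is transcribed more constantly. In islets, glucose and depolarisation are known to induce several of them.

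Values came as group means only. A concentration is a log2 mean of normalised reads per peak, a fold is a difference of such means on the log2 scale, and depth per library is unknown. A peak was called at the authors' FDR of 0.05 or below. The labels were checked at Arid1a: its listed peak, in exon 9 of 20, was higher in KO-labelled islets in the authors' deposited tables, at 5.49 against 1.21 before PPx (FDR 0.00187) and 4.04 against 0.4 after PPx (FDR 0.00201). It was called in 0 control libraries in either state, and in 3 of 3 KO-labelled libraries before PPx but 3 of 4 after. Within KO-labelled islets it read 5.26 before and 4.04 after PPx (fold −1.22, FDR 0.0584 in the authors' deposited table). The labels do not say whether that exon lies in the floxed part, and the groups are therefore named by their labels. Of 10 beta cell marker genes 5 or 6 had peaks per table, while Ins2, Pdx1, Slc2a2 and Iapp, which define beta cells, had none. Of 6 alpha cell markers 2 or 3 were listed, and none of 6 acinar or 4 ductal markers.

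Sequences were read for the stretch directly upstream of the RefSeq start of each gene (GRCm38.p6, the assembly also called mm10), because no listed peak of any gene covered that start, or came within 250 bp of it, for the 6 members that had a promoter entry in RefSeq. The 250 bases before the start are given 5′ to 3′ along the transcript for the 4 immediate early members, from chr4:95052223-95052472 (minus strand) for Jun, chr12:85473640-85473889 (plus strand) for Fos, chr7:19310046-19310295 (minus strand) for Fosb and chr8:84978749-84978998 (minus strand) for Junb. Capitals mark GGGCGG, the core of an Sp1 site, or its reverse complement CCGCCC, and CCAAT, the core bound by NF-Y.
Jun: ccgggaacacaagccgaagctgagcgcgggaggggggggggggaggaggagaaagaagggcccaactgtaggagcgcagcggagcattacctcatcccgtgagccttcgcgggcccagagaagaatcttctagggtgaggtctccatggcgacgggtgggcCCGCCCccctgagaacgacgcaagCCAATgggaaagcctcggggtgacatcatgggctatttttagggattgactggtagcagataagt
Fos: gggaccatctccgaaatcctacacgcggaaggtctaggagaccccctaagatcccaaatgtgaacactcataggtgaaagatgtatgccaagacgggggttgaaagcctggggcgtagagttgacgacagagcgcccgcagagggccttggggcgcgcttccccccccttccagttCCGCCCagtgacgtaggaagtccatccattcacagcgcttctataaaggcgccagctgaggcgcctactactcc
Fosb: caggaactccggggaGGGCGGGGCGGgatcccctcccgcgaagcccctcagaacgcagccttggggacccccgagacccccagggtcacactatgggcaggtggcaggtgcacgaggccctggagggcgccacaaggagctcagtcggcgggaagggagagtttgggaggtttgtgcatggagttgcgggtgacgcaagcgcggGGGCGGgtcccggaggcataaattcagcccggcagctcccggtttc
Junb: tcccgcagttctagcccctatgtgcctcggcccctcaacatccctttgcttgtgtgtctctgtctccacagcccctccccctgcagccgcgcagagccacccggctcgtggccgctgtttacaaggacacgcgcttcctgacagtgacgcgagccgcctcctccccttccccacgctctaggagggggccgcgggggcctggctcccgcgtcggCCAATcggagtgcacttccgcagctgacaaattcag

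GGGCGG was present on either strand in the windows of Fos, Fosb, Fosl2 and Jun, and in 32.7% of 32851 RefSeq windows of the same length. Fosb had it 3 times, with the first pair sharing a G. CCAAT was present in Jun and Junb and in 33.8% of all windows. The AP-1 motif TGANTCA, searched on both strands, was in none of the 6 member windows and in 6.75% of all. TGACGTCA, the full cyclic AMP response element, was in 0 of 6 and in 1.55% of all, and the CArG box of serum response factor in 0 of 6 and in 1.47%. These are letter matches within these windows only. Sites that vary from the exact patterns, or that lie outside the windows, were not counted, so their absence is not shown.

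The listed peaks lay in the body or at the 3′ end of the gene, or outside the gene without covering its start. Jun had its peak at 2.37 to 2.75 kb downstream of the start, wholly inside the gene of 3187 bp, whose single exon holds the whole transcript. Junb, a gene of 1840 bp, had a peak centred 1.63 to 1.94 kb downstream that overlapped the gene's 3′ end by 198 to 515 bp. At Jund the peak lay inside the gene, 1.2 to 1.48 kb downstream. Fos carried a peak across its 3′ end, centred 3.2 to 3.63 kb downstream and overlapping the gene by 60 to 483 bp, and 3 intergenic peaks near −32.1, −18.5 and +12.1 kb. Fosb carried a peak inside the gene at +1.73 kb and intergenic peaks near −10.0 and −16.9 kb. Fosl2 had a peak upstream of its start, centred at −0.863 to −0.675 kb.

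Of the promoter-annotated peaks of other genes, 82.7%, 79.4%, 82.0% and 79.8% covered the RefSeq start of their gene in the genotype comparisons before and after PPx and in the PPx comparisons of controls and KO-labelled islets. Among member peaks with a promoter annotation the counts were 0 of 5, 0 of 5, 0 of 4 and 0 of 6. Peak centres farther than 1 kb from the start made up 8.42%, 11.1%, 9.27% and 10.9% of the other genes' promoter peaks, and 4 of 5, 4 of 5, 3 of 4 and 5 of 6 of the members'. Member entries in different tables are the same places measured in shared libraries, so the 4 counts are not separate evidence, and 1 RefSeq start per gene was used. The deposited class did not follow that start at Jun, which was annotated within 1 kb or at 1 to 2 kb, nor at Fos, which was annotated at 1 to 2 or 2 to 3 kb, nor at Jund, which was annotated within 1 kb. Distances at these 3 genes therefore depend on which start is used.

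**Figure D1:**
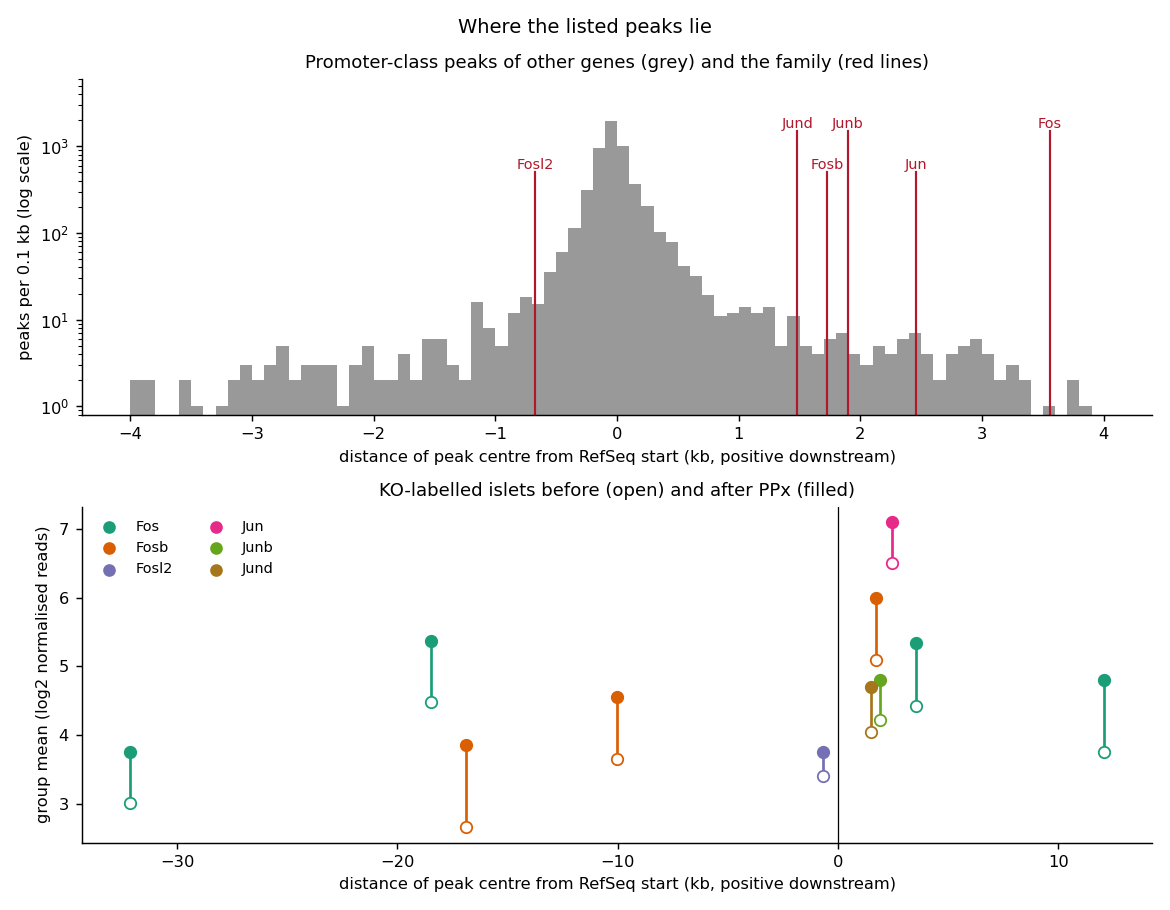
Upper panel: number of promoter-annotated peaks of other genes per 0.1 kb (log scale) by distance of the peak centre from the RefSeq start in kb, for KO-labelled islets after against before PPx, with red lines at the 6 promoter-annotated family peaks. Lower panel: log2 group means of all 11 family peaks by distance, before (open) and after PPx (filled). The grey peaks gather at 0, the family lines do not, and Jun has the highest mean.

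Jun, whose protein is the main partner of Fos proteins and can also pair with itself, had by far the strongest peak of the family. Its group means in the authors' deposited tables were 6.83 in controls and 6.85 in KO-labelled islets before PPx, and 6.61 and 6.94 after PPx. In the tables of PPx it read 6.54 before and 6.84 after in controls, and 6.51 before and 7.1 after in KO-labelled islets. Its mean over both groups stood at percentile 99.5 to 99.6 of all peaks in each table. The same control group before PPx thus has means of 6.83 and 6.54 in different tables, where the peak limits and the scaling also differ, so levels were compared only within a table.

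The order of the family below Jun was less clear. In KO-labelled islets after PPx, in the table of PPx, the means ran from Jun at 7.1 through Fosb +1.7 kb at 5.99, Fos −18.5 kb at 5.37, Fos +3.5 kb at 5.34, Junb at 4.81, Fos +12.1 kb at 4.8, Jund at 4.7, Fosb −10.0 kb at 4.55, Fosb −16.9 kb at 3.86 and Fosl2 at 3.76 to Fos −32.1 kb at 3.75. The peaks all have 1 width, so these levels are per equal length. Spread between libraries is not given per group, and the standard errors implied for folds, with a family median of 0.41 in that table, are larger than 6 of the 10 steps between neighbours in this order. The 4 steps above that figure lie below Jun, Fosb +1.7 kb, Fos +3.5 kb and Fosb −10.0 kb. Differences in level between peaks were not tested.

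**Figure D2:**
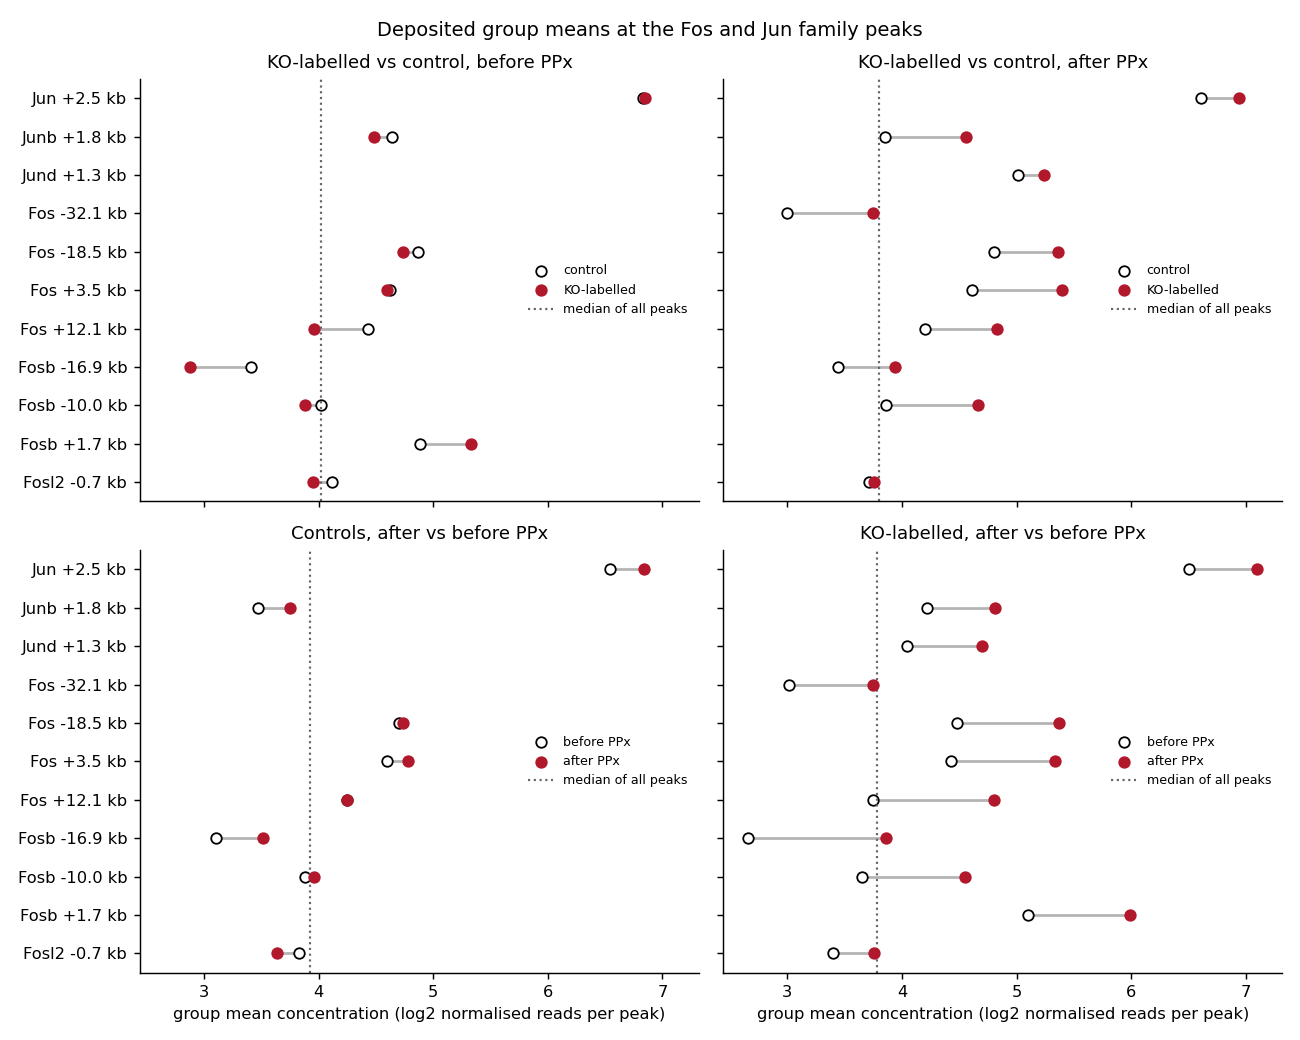
Group mean concentration (log2 normalised reads per peak) of each family place in the 4 deposited tables, with open and filled circles for the groups named in each panel and a dotted line at the median of all peaks. Jun lies right of every other family peak, and in KO-labelled islets after PPx every filled circle lies right of its open one.

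Before PPx, KO-labelled and control islets had similar levels at most family peaks, with no call. Of 9 folds in the authors' deposited table, 7 were below 0 and 2 above, from −0.52 to 0.45, with a median of −0.14 beside 0.00 for all peaks and an FDR of 1 for each. At FDR 0.05 the percentage called was 0.0128, a single peak of 7826, and with an unadjusted p under 0.05 and a higher value it was 0.843, with 0 of 9 members. The lowest value was at Fosb −16.9 kb, with means of 3.41 in controls and 2.88 in KO-labelled islets, and the next at Fos +12.1 kb, with 4.43 and 3.96. The highest fold, 0.45 in the authors' deposited table, was at Fosb +1.7 kb, with means of 4.88 and 5.33. Means at the other Fos and Fosb places were 4.87 in controls and 4.74 in KO-labelled islets at Fos −18.5 kb, 4.62 and 4.6 at Fos +3.5 kb, and 4.02 and 3.88 at Fosb −10.0 kb. Fosl2 had 4.12 and 3.95, and Junb 4.64 and 4.48. Fosb +1.7 kb was called in 0 control and 2 KO-labelled libraries, Fos +12.1 kb in 3 and 1, and Fosl2 in 2 and 1. With calls needed in at least 2 libraries, these places were listed only with calls in the group where they are higher. Their direction is therefore not separate evidence. Junb, called in 1 and 3, was listed only with calls in KO-labelled islets, where it is lower. Jun differed by 0.03. The interval of 95% for Jun ran from −0.59 to 0.65. Its standard error is the median of peaks of similar concentration, not one implied by its own p, because its fold was below 0.1.

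After PPx, all 10 family peaks had higher means in KO-labelled than in control islets, and none was called. Listing took calls in at least 2 libraries. Fos −32.1 kb and Fosl2 had calls in 0 control libraries and in 3 and 2 KO-labelled ones. Fosb −16.9 kb had calls in 1 control library and 3 KO-labelled ones. These places were thus listed only with their calls in the group where they are higher, and their direction is not separate evidence. Folds in the authors' deposited table ran from 0.05 to 0.79, with a median of 0.595 beside 0.61 for all peaks, of which 90.3% were above 0. Of all peaks 9.98% were called at FDR 0.05, and 0 of 10 members. At an unadjusted p under 0.05 and a higher value the background was 33.0%, with 2 of 10 members, and at FDR 0.10 it was 25.9%, with the same count of 2. With Benjamini-Hochberg adjustment over the listed peaks the background was 4.20%, with 0 members. The share of members called was at or below the background under each rule, and 5 members lay above the table's median fold and 5 below.

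Markers of several islet cell types also had higher sums of normalised reads in KO-labelled than in control islets after PPx: beta 274 against 167 over 13 peaks of 6 of 10 genes, and alpha 58.5 against 46.4 over 4 peaks of 3 of 6 genes. The delta cell gene Sst, 1 listed gene of 3, read 5.32 against 4.2 on the log2 scale in the authors' deposited table and was called, as were 2 of 13 beta cell peaks. Fibroblast markers summed to 67.6 against 46.8, endothelial markers, Tek and Cdh5, to 45.1 against 45.6, and the leukocyte gene Ptprc to 11.3 against 5.9, while Schwann markers were not listed. The median fold of all peaks was 0.61, and 9.98% of all peaks were called. Beside it, median folds were 0.66 for beta, 0.4 for alpha, 0.47 for fibroblast and 0.08 for endothelial markers. Sst had a fold of 1.12 and Ptprc one of 0.94. For PPx in KO-labelled islets the sums went from 135 to 275 for beta, 33.3 to 58.5 for alpha and 28.2 to 41.4 for Sst, and from 41.1 to 64.6 for fibroblast, 15.8 to 19.0 for endothelial and 9.65 to 11.3 for leukocyte markers. Median folds there were 1.08 for beta, 0.91 for alpha, 0.55 for Sst, 0.7 for fibroblast, 0.32 for endothelial and 0.23 for leukocyte markers. For all peaks the median was 0.83. The part of cell makeup in the family's folds was not tested.

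Fos, whose protein typically binds DNA as a partner of a Jun protein, had 4 listed places after PPx. At its 3′ end the authors' deposited table gave means of 4.61 in controls and 5.4 in KO-labelled islets, a fold of 0.79 with FDR 0.0824, and at +12.1 kb means of 4.2 and 4.83, a fold of 0.63 with FDR 0.133. At −18.5 kb the means were 4.8 and 5.36 (fold 0.56, FDR 0.189), and at −32.1 kb they were 3 and 3.75 (fold 0.76, FDR 1) in the authors' deposited table. The FDR of 1 at −32.1 kb does not follow its p of 0.0937 in the authors' deposited table, since −18.5 kb has a larger p, 0.114, and a lower FDR. Adjustment of the authors' p-values by Benjamini-Hochberg over all listed peaks gave 0.21 at −32.1 kb. The standard errors implied by fold and p were 0.36, 0.34, 0.35 and 0.45 for these 4 places. Folds at the 4 places therefore differed from each other by less than 1 standard error.

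Fosb, a Fos relative that also has a shorter splice form lacking the activation domain, had 2 listed places after PPx. The peak at −10.0 kb had means of 3.86 and 4.66 and a fold of 0.79 with FDR 0.0828 in the authors' deposited table. At −16.9 kb the authors' deposited table gave 3.44 and 3.94, a fold of 0.5 with FDR 0.364. Fosl2, which encodes the Fos-related protein Fra-2, had means of 3.71 and 3.76 and the smallest family fold, 0.05 with FDR 0.953, in the authors' deposited table. The interval of 95% for Fosl2 ran from −0.74 to 0.84, which includes the folds at all 4 Fos places. Because the fold of Fosl2 was below 0.1, its standard error was the median of peaks of similar concentration.

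Among the Jun genes after PPx, Junb, whose protein can act as a weaker activator than Jun, had means of 3.85 in controls and 4.56 in KO-labelled islets, a fold of 0.7 with FDR 0.135 in the authors' deposited table. Jun had a fold of 0.33 with FDR 0.459 there, and Jund means of 5.01 and 5.24 with a fold of 0.23 and FDR 0.487. Implied standard errors were 0.38 for Junb, 0.38 for Jun and 0.28 for Jund. Differences among the 3 Jun genes were not tested. Control libraries taken after PPx had the Junb peak called in 2 of 4 and KO-labelled ones in 4 of 4, while Jun and Jund peaks were called in all 8 libraries.

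In control islets the family had small folds after PPx against before, and no call was made. Folds of the 8 peaks in the authors' deposited table ran from −0.2 at Fosl2 to 0.41 at Fosb −16.9 kb, with 6 above 0, 1 at 0 and 1 below, and an FDR of 0.999 for each. Their median was 0.13, beside 0.16 for all peaks, of which 72.8% were above 0. The percentage called at FDR 0.05 was 0 of all peaks, and at an unadjusted p under 0.05 and a higher value it was 2.43, with 0 of 8 members. Jun had a fold of 0.31, and Junb one of 0.27 from means of 3.47 before and 3.75 after. Fos +12.1 kb had 4.25 in both groups, while Fos −18.5 kb had 4.7 before and 4.74 after, and Fos +3.5 kb 4.6 and 4.78. Fosb had 3.88 and 3.96 at −10.0 kb and 3.1 and 3.51 at −16.9 kb, and Fosl2 3.83 and 3.64. The interval of 95% implied for Jun ran from −0.31 to 0.93. Fosl2 was called in 2 libraries before and 0 after PPx, and Fosb −10.0 kb and Junb in 1 before and 2 after. With calls needed in at least 2 libraries, these places were listed only with calls in the group where they are higher. Their direction is therefore not separate evidence.

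PPx in KO-labelled islets went with higher means at all 11 family peaks, again with no call. Fos +12.1 kb, Fos −32.1 kb, Fosb −10.0 kb, Fosb −16.9 kb and Fosl2 had a call in only 1 library before PPx. With at least 2 libraries needed, these places were listed only with their calls after PPx, where their means are higher. The authors' deposited table gave folds from 0.36 to 1.2, a median of 0.89 beside 0.83 for all peaks, and 97.1% of all peaks above 0. At FDR 0.05 it called 7.45% of all peaks and 0 of 11 members. With an unadjusted p under 0.05 and a higher value the background was 39.4% and the members 5 of 11, and at FDR 0.10 it was 31.1% and 4 of 11, shares near the background. With adjustment over the listed peaks it was 4.49% and 0 members. This comparison shares the 4 KO-labelled libraries taken after PPx with the genotype comparison after PPx, so the shared direction is not independent.

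Fos and Fosb places made up all 5 members with an unadjusted p under 0.05. Fos +12.1 kb had means of 3.75 before and 4.8 after, a fold of 1.04 with FDR 0.062, the lowest FDR of the family in the authors' deposited table. The others were Fosb +1.7 kb at 0.89 (FDR 0.0735), Fos −18.5 kb at 0.89 (FDR 0.0803), Fos +3.5 kb at 0.91 (FDR 0.087) and Fosb −10.0 kb at 0.9 (FDR 0.101) in the authors' deposited table. Their means before PPx were 5.1, 4.48, 4.43 and 3.65. Fosb −16.9 kb had the highest fold, 1.2 from means of 2.66 and 3.86, with FDR 0.277 in the authors' deposited table. Its implied standard error was 0.97, the widest of the family.

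The Jun genes and Fosl2 had the smaller folds of that comparison, apart from Fos −32.1 kb at 0.75 (means of 3.01 and 3.75, FDR 0.237 in the authors' deposited table). Jund had means of 4.04 and 4.7, a fold of 0.66 with FDR 0.166 in the authors' deposited table, while Jun and Junb, the latter from 4.22 to 4.81, each had a fold of 0.59, with FDR 0.196 and 0.234. Fosl2 went from 3.4 to 3.76, a fold of 0.36 with FDR 0.536 in the authors' deposited table. The implied interval of 95% for Jun, from −0.18 to 1.36, includes the folds at all 4 Fos places, and a difference between Fos and Jun genes was not tested.

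**Figure D3:**
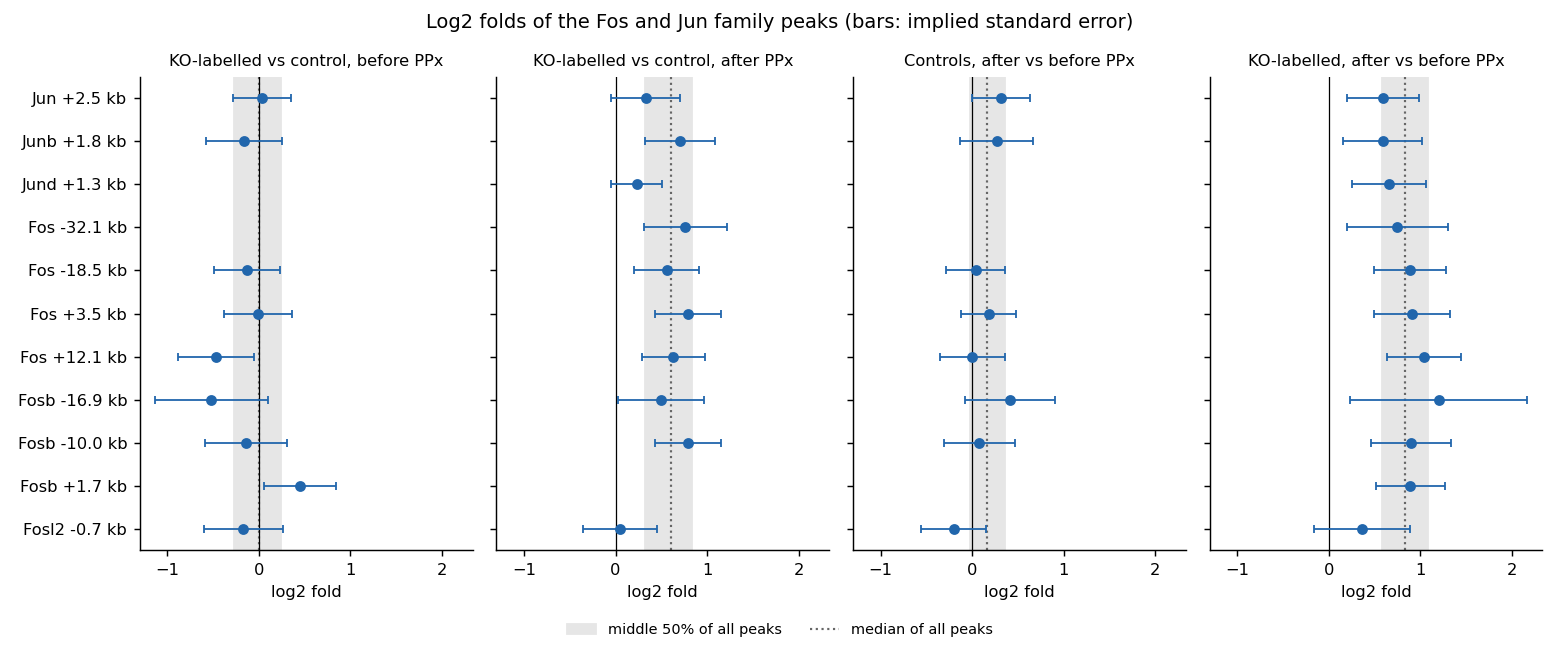
Log2 fold of each family place in the 4 comparisons, with bars for the standard error implied by the deposited fold and p, a grey band for the middle 50% of all peaks and a dotted line at their median. For folds below 0.1 in size the bar is the median of peaks of similar concentration. Family folds lie on both sides of the dotted line in each panel, with 7 of 9 below it in the genotype panel before PPx. The line lies near 0 in that panel and at 0.61 and 0.83 in the panels with KO-labelled islets after PPx.

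The difference of the genotype effect between states (fold after PPx minus fold before) was tested for the 8 places listed in both genotype tables, by a z test, two-sided, adjusted by Benjamini-Hochberg over 7504 matched peaks. It ranged from 0.22 at Fosl2 to 1.1 at Fos +12.1 kb, with a median of 0.83 beside 0.64 for all. None of the 8 passed, and 2 of all 7504 did. The lowest adjusted p among the members, at Fos +12.1 kb, was 0.34 by that z test. At an unadjusted p under 0.05 the count was 1 of 8 members and 14.5% of all peaks. Folds here were −0.47 before and 0.63 after PPx, and the implied standard error of the difference was 0.54. With each table centred on its median the member median was 0.22 beside 0.03 for all.

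The peak inside Fosb, identical in position in its 2 tables (chr7:19308017-19308617, GRCm38.p6), had call counts that did not follow its level. Before PPx it had a mean of 4.88 in controls, with the peak called in 0 of 4 libraries, and 5.33 in KO-labelled islets, with 2 of 3. For PPx in KO-labelled islets its mean was 5.1 before, with 2 of 3 libraries called, and 5.99 after, with 0 of 4. The fold of 0.89 in the authors' deposited table had an FDR of 0.0735. Of the 647 peaks with a mean of at least 5.99 in KO-labelled islets after PPx, this was the only 1 called in 0 libraries (0.155%). Among the 1269 peaks at or above 4.88 in controls before PPx, 2 had no call (0.158%). Over the whole PPx table of KO-labelled islets, 34 peaks went from 2 or more libraries with a call to 0, and 11 of these had a higher mean after PPx.

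At Jund the name of the peak changed between tables. In the tables of genotype before PPx and of PPx in controls, an overlapping peak stood under Gm11175, a predicted gene, and so was no member by name. It overlapped the Jund place by 36 bp in the former and by 267 and 549 bp in the latter. The authors' deposited tables gave it means of 3.5 in controls and 3.72 in KO-labelled islets before PPx, and 4.13 before and 4.09 after PPx in controls. With so short an overlap the peak before PPx is hardly the same place, and it did not overlap the Jund entry of the genotype table after PPx. No value under the name Jund is listed for these 2 comparisons.

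Peaks of other genes within 100 kb numbered 15, 18, 16 and 18 in the 4 comparisons, in the order above, all near Fosb, Jun, Junb and Jund, and 0, 4, 0 and 2 of these were called, beside 9.98% of all peaks for the 4 of 18 and 7.45% for the 2 of 18. The counts of 15 and 16 include the Gm11175 peak. None was listed near Fos or Fosl2. After PPx the called neighbours in the authors' deposited table were Opa3 near Fosb (fold 0.92, FDR 0.0461), Gm12694 near Jun (0.94, FDR 0.0382), Gcdh near Junb (1.01, FDR 0.0489) and Pik3r2 near Jund (0.82, FDR 0.0491). Both listed neighbours of Jun were called for PPx in KO-labelled islets, Mysm1 with a fold of 1.32 (FDR 0.0353) and Gm12694 with 1.19 (FDR 0.0349) in the authors' deposited table, at 81.4 and 69.8 kb from the Jun peak. The fold of Jun itself there was 0.59, and whether it differs from these was not tested.

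Genes that act with AP-1 were followed as 6 lists. Of 24 other immediate early genes 16 were listed with 25 peaks after PPx, and 5 of these were called higher in KO-labelled islets, none lower, with a median fold of 0.59 beside 0.61 for all peaks. In the authors' deposited table they belonged to Btg2, an antiproliferative gene (fold 1.21, FDR 0.0214), the Krüppel-like factor gene Klf6 (0.97, FDR 0.0374), the nuclear receptor gene Nr4a3 (0.91, FDR 0.0392), Ier5 (1.28, FDR 0.0412) and the neuronal gene Arc (1.17, FDR 0.0436). For PPx in KO-labelled islets, 2 of 24 peaks in that list were called, both at Btg2. Before PPx and in the controls no peak of any of the 6 lists was called.

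Creb1, a factor that binds cyclic AMP response elements such as that of Fos, had a called promoter peak after PPx with a fold of 1.11 and FDR 0.027 in the authors' deposited table, the 1 call of 11 peaks among regulators of Fos and Jun transcription. A Creb1 peak in intron 8 of 8 had a larger fold, 1.63. Its p by the authors' test was smaller, 0.000362 against 0.000616 at the promoter. It was not called, because its deposited FDR does not follow its p, as at Fos −32.1 kb. For PPx in KO-labelled islets 3 of 11 peaks of these regulators were called, 2 at Creb1 and 1 at Elk3, a ternary complex factor. The dimer partners had 1 call of 4 peaks after PPx, at Atf7 (fold 1.03, FDR 0.0472 in the authors' deposited table), and 0 of 4 for PPx in KO-labelled islets. The JNK, ERK and p38 kinases, which phosphorylate or induce AP-1 proteins, had 0 of 11 and 0 of 9 called, with medians of 0.67 and 0.72. After PPx the deposited FDR did not follow p at Mapk10, Mapk14, Map2k4 and Rps6ka1 either. The same held in the other lists, at Nr4a1, Egr3, Elk4, Atf2, Batf3, Cd44 and Cop1. It also held at an Elk3 intron peak and at distal peaks of Myc, Klf6 and Rhob. For PPx in KO-labelled islets it occurred too, for example at Egr3 and Elk4. Peaks with such an FDR could not be called, yet they remain in the peak totals of the lists. Genes often cited as AP-1 targets had 0 of 4 and 0 of 5, and the single listed negative regulator, the ubiquitin ligase gene Cop1, was not called. These counts stand beside the 9.98% and 7.45% called among all peaks.

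The highest promoter peaks of these lists after PPx had folds above 0. Klf6 had means of 5.67 in controls and 6.64 in KO-labelled islets, and Rhob, a small GTPase gene, 5.65 and 6.5 with a fold of 0.85 and FDR 0.0532 in the authors' deposited table. The JNK kinase gene Map2k7 had 5 and 5.67 (fold 0.67, FDR 0.109), and Mapk9, which encodes a JNK, 4.4 and 5.23 (fold 0.83, FDR 0.0562) in the authors' deposited table. Crem, a relative of Creb1, had 4.53 and 5.26 (fold 0.73, FDR 0.0708), and Atf3, a stress-induced dimer partner, 3.44 and 3.94 (fold 0.5, FDR 0.28) in the authors' deposited table. Among targets, the heme oxygenase gene Hmox1 had 4.49 and 5 (fold 0.51, FDR 0.196) and the intermediate filament gene Vim 3.33 and 3.78 (fold 0.45, FDR 0.364) in the authors' deposited table. In each of these promoters the peak is annotated within 1 kb of the start, unlike those of Fos, Jun and Junb in the same comparison.

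**Figure D4:**
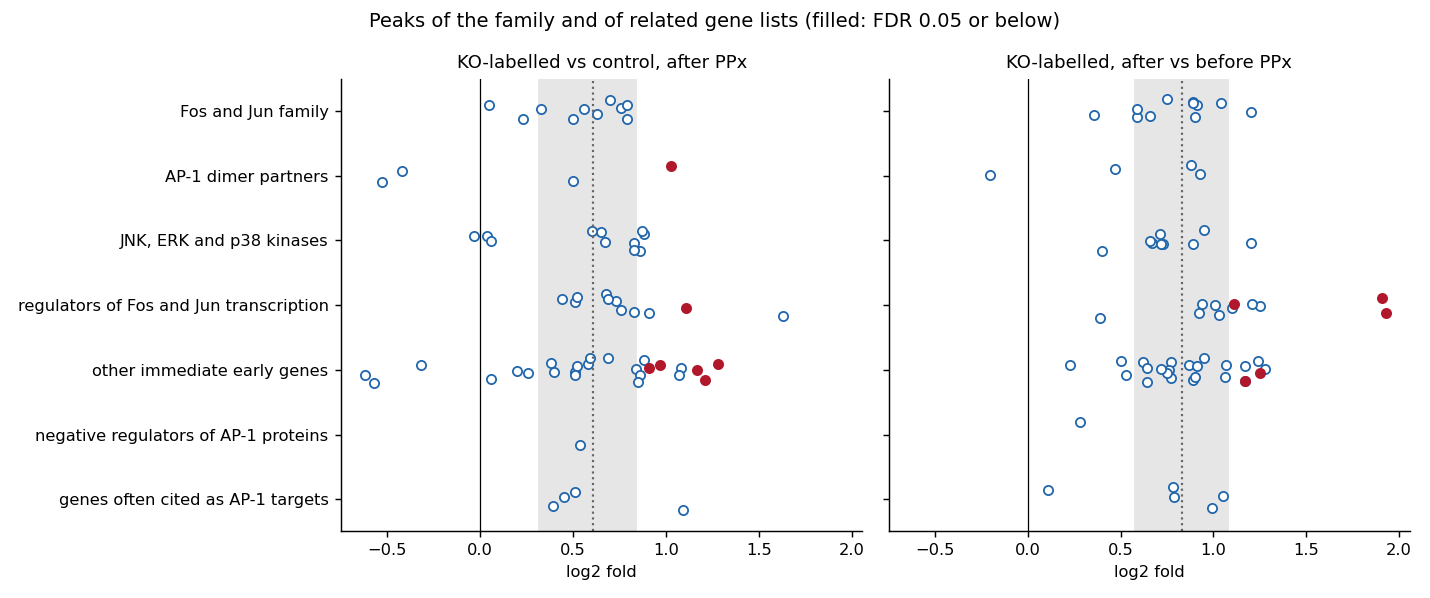
Log2 folds of single peaks of the family and of the 6 related gene lists, for KO-labelled against control islets after PPx (left) and for KO-labelled islets after against before PPx (right), with filled circles at FDR 0.05 or below, a grey band for the middle 50% of all peaks and a dotted line at their median. Vertical scatter within a list carries no value. The family has no filled circle, and the other immediate early genes have 5 on the left and 2 on the right.

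Peaks with the most similar 8 group means over the 4 tables were found by Euclidean distance among 6808 peaks listed in all of them. The nearest to Fos +3.5 kb was at Dnm2 (distance 0.18 log2 units), to Fos −18.5 kb at Slc2a12 (0.15), to Fos +12.1 kb at Ska2 (0.11) and to Fosb −10.0 kb at Eci2 (0.1). The nearest to Fosb −16.9 kb was at Rpl9 (0.18), to Fosl2 at Celf4 (0.35) and to Junb at Stk39 (0.60). For Jun it was Clec11a (0.38), beside a median distance of 7.22 from Jun to all peaks.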

How the data were processed

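ATAC-seq libraries from islets of 15 mice were processed by the authors. The submitters' processing notes name mm10 and the tools BWA, ChIPseeker, cutadapt, DiffBind and MACS, with versions and settings not given in the sources used here. Per the file headers, the deposited tables hold log2 concentrations as group means, a log2 fold, a p-value and FDR, and the libraries with a call in each group. Library depth and the spread between libraries are therefore unknown. Members and gene lists were chosen with earlier results of these data known.

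Repeated rows were dropped and folds given as KO-labelled minus control, or after minus before PPx. A standard error was implied from the fold and the normal quantile of the deposited p-value, or, where the fold was below 0.1 or p at least 0.95, as the median of 1 of 40 concentration bins. It assumes that the p-value measures spread between mice. Peaks were matched between tables by an overlap of 1 bp. Distances run from peak centre to 1 RefSeq start per gene. Named were all member peaks, called peaks and the 2 genes with the highest promoter peaks of each list (values given after PPx), called neighbours within 100 kb and the nearest pattern. Calculations used pandas 2.3.3 and scipy 1.17.1 and were tested on simulated data. Alternatives were other thresholds, adjustment, centring, overlap, annotation and windows.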

Additional observations from a re-analysis of the deposited data

How the results depend on the processing

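The count of family peaks called stayed at 0 in all 4 comparisons, except at FDR 0.10, where it was 2 for genotype after PPx and 4 for PPx in KO-labelled islets. The median fold for genotype after PPx became −0.015 when centred on the table median, 0.03 when centred within bins of concentration and annotation, and 0.14 over peaks annotated within 1 kb. The last value rests only on Fosl2 (0.05) and Jund (0.23). For PPx in KO-labelled islets the median fold became 0.06 and 0.04 under the same 2 centrings, which by construction remove the shift of the whole table. Within 50 kb the neighbour counts were 6, 5, 6 and 5. The other 17 of 22 alternatives for the median fold moved it by less than the median implied standard error, and ranking levels among promoter peaks only moved 9 of 20 percentiles beyond their error, by up to −12.3 points. Leaving out each replicate was not run, and no paired analysis was possible, because the tables hold group means only and the numbers in the titles are not shared between groups. The tables list peaks the authors kept, so a place that is not listed has no value here. Adding the Gm11175 peak at Jund was chosen after seeing the data.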
